A study of Homo sapiens with 8 samples.

Results

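Global-genome repair finds DNA lesions outside transcription, and its damage recognition step rests on a small group of proteins whose genes were examined here for chromatin accessibility. The 8 genes were XPC, RAD23B and CETN2, which encode the subunits of the XPC complex, DDB1 and DDB2, which encode the UV-DDB damage sensor, and CUL4A, CUL4B and RBX1, which encode the cullin scaffolds and the RING subunit of the CRL4 ubiquitin ligase. The items counted were accessible regions, that is distinct intervals of the deposited peak lists, that overlap the span of one of these genes (GENCODE release 44, hg38) extended by 5 kb on both sides. There were 274 such regions of 1440417 in the 8 lists, and they formed 94 of 548046 sites when regions sharing at least 1 bp were joined.

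Open chromatin was profiled by ATAC-seq, which uses Tn5 transposase to put sequencing adapters into exposed DNA. The U2OS osteosarcoma cells, an established human line, were wild type (WT) or ASH1L-/-, with the gene of the histone methyltransferase ASH1L disrupted by CRISPR/Cas9, and the methods describe the isolation of individual colonies. Each genotype was left unchallenged or irradiated with UV-C at 20 J/m2 and allowed to recover for 3 h, with 2 biological replicates in each of the 4 groups. Cells of all groups received a DNase treatment before tagmentation, and a difference between ASH1L-/- and WT cells cannot be told apart from one between cell clones. A region open in fewer cells and a region less open in each cell cannot be told apart either.

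As background, UV-DDB binds UV photoproducts in chromatin through DDB2 and hands them to the XPC complex, which senses the distorted helix and brings in the next repair factors. RAD23B stabilizes XPC, and the centrin CETN2 binds to its C-terminal part. DDB1 also links DDB2 to CUL4A or CUL4B, and the ligase, with the RING finger protein RBX1 that recruits the ubiquitin-conjugating enzyme, ubiquitylates DDB2 and XPC after UV irradiation. XPC and DDB2 are known targets of p53 in human cells.

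The lists held between 158198 and 220783 regions. Library depth, given as the genome-wide mean of the read pileup, ranged from 1.39 in replicate 2 to 5.87 in replicate 1 of the unchallenged ASH1L-/- cells, and from 1.74 to 2.81 in the other 6 libraries. The median region width was 242 to 291 bp in the unchallenged libraries and 356 to 444 bp after UV, so that the lists made after UV differed from the others as a whole. The promoter of ASH1L had a region in all 8 lists, at percentiles 81.1 to 97.6, which does not check the knockout. Of 6 mesenchymal or osteoblast markers, RUNX2, COL1A1, VIM and SPARC had a promoter region in all 8 lists, COL1A2 in 7 and TWIST1 in 2. Of the blood markers given here, PTPRC and CD3E had a promoter region in 0 lists and CD79A in 4. The epithelial markers EPCAM and KRT8 had one in 8 lists and CDH1 in 0.

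To show the sequence at the gene starts, the stretch just before the start of transcription is printed for 4 members that stand at different levels or differ between conditions. The sequences are RefSeq's (GRCh38.p14) and are written 5' to 3' on the strand of the gene, without bases of any annotated exon. Capitals mark matches, on either strand, to 7 short motifs that were searched in the 300-base window from 250 bases before to 50 bases after the start. The stretches lie at chr3:14178622-14178816 (minus strand) for XPC, chr11:47214724-47214973 (plus strand) for DDB2, chr13:113209363-113209599 (plus strand) for CUL4A and chr22:40951128-40951346 (plus strand) for RBX1. Those of XPC, DDB2 and RBX1 lie inside the promoter region whose values follow, whereas that of CUL4A lies nearer to the start than its strongest region, chr13:113208447-113209024, and outside it.
XPC: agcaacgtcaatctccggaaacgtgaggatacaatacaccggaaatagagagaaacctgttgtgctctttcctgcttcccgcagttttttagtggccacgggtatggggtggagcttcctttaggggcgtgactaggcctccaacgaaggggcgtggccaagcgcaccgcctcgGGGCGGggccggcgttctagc
DDB2: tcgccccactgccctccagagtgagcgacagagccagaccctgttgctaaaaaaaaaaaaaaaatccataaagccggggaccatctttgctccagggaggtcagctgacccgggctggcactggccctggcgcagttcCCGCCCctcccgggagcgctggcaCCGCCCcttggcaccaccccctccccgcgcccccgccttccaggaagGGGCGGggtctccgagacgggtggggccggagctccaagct
CUL4A: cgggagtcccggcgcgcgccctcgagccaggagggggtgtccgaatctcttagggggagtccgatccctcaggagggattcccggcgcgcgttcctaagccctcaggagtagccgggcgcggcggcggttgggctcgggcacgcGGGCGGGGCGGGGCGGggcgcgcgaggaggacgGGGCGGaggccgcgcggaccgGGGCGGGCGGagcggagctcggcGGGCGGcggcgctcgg
RBX1: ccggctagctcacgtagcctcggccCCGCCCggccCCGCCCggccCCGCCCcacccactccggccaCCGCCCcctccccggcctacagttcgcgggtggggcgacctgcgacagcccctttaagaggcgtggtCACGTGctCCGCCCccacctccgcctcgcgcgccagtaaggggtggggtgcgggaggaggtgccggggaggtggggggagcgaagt

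All 8 members matched a RefSeq window that begins at the start site used here, and all 8 windows were identical to hg38. The GC box GGGCGG occurred in all 8 windows, from 1 match at XPC and CETN2 to 8 at CUL4A, where matches overlap, and in 45.0% of the 35116 RefSeq windows. The CCAAT box (CCAAT) was found at RAD23B and CETN2 and in 34.6% of all windows. The E-box CACGTG occurred at RBX1 alone among the members, and in 7.26% of all windows. The YY1-type motif AAGATGGCG occurred at CUL4B alone, and in 1.75% of all windows. The ETS-type motif CCGGAAG, the CRE TGACGTCA and the NRF1-type motif GCGCATGCG had no match in the member windows, against 10.3%, 1.85% and 1.92% of all windows. The GC content of the member windows ranged from 60.3% at XPC to 79.7% at CUL4A.

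Beyond 1 kb from the start sites used here, 4 sites whose summit windows hold no annotated exon are printed. Each is shown as 200 bases around the summit, on the plus strand of hg38. The site in the CUL4B intron lies within 1 kb of another annotated CUL4B start. The CETN2 and DDB2 flanks are shown since their regions were called in the UV lists alone, and the DDB1 flank and the CUL4B intron since they were called in all 8 lists. They lie at chrX:152824956-152825155, chr11:47241994-47242193, chr11:61297810-61298009 and chrX:120549916-120550115. Capitals mark the AP-1 motif TGAGTCA (which reads TGACTCA on the other strand), the TEAD motif GGAATG and the RUNX motif TGTGGTT, on either strand.
CETN2 flank: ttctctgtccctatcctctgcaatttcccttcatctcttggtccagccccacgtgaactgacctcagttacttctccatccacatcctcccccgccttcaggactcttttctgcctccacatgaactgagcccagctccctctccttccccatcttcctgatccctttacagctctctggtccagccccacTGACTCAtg
DDB2 flank: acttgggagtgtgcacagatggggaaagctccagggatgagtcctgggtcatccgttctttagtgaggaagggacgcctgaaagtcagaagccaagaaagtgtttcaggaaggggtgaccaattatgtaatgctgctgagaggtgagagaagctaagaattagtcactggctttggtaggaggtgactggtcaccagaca
DDB1 flank: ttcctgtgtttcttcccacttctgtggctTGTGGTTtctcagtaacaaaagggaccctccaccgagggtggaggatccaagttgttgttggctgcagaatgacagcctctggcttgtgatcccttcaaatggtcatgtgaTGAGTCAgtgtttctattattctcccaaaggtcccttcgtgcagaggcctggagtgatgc
CUL4B intron: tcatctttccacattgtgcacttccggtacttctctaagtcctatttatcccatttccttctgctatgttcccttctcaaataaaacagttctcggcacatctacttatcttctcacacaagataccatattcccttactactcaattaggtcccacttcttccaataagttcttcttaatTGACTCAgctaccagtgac

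The AP-1 motif occurred in 5 of the 94 member sites, and in 3 of the 15 that were called in all 8 lists, those at the XPC flank, the DDB1 flank and the CUL4B intron. It occurred in 7.46% of all sites and in 18.0% of all sites called in all 8 lists, promoters included. In the CETN2 flank it stood near the end of the window, and the DDB2 flank held none of the 3 motifs. GGAATG occurred in 9 and TGTGGTT in 5 of the 94 member sites, against 13.1% and 4.61% of all sites. These matches are descriptions of the sequence.

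Each of the 8 genes had an accessible promoter in every library, before and after UV and in both genotypes. A promoter here is the strongest region that overlaps the 1 kb on either side of the transcription start site (TSS) of the MANE Select transcript, and 11802 of 19970 protein-coding genes had one in all 8 lists. Because fold enrichment was not normalised between libraries, each region is given by its percentile, the share of the regions of its own list with a lower fold enrichment. The mean percentile over the 8 libraries was 98.1 for CETN2, 96.0 for RBX1, 95.8 for XPC, 92.4 for RAD23B, 88.9 for DDB2, 87.4 for CUL4B, 82.5 for DDB1 and 77.8 for CUL4A. The ranges over the libraries overlapped between all neighbours in this order. Among all promoters, whose median was 88.3, the mean of CETN2 exceeded 90.1% and that of CUL4A 25.5%. Values at 5 of the 8 promoters, RAD23B, DDB2, CUL4A, CUL4B and RBX1, were lower in all 4 UV libraries than in all 4 unchallenged libraries, and 21.1% of all promoters behaved like that. None was higher in all 4 UV libraries, against 1.06% of all promoters.

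**Figure D1:**
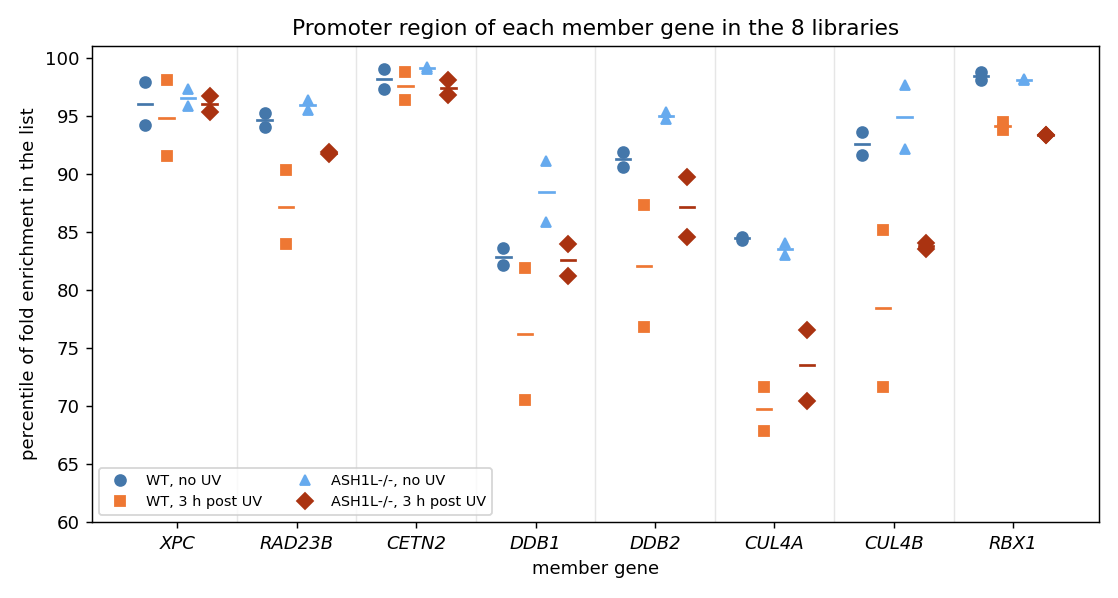
Percentile of fold enrichment within its list (vertical axis, from 60) of the promoter region of each member gene (horizontal axis). Each point is a library, 2 for each group, and short lines are group means. RAD23B, DDB2, CUL4A, CUL4B and RBX1 lay lower in all 4 libraries made after UV than in the 4 unchallenged ones, whereas the ranges overlapped at XPC, CETN2 and DDB1.

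The promoters of the XPC complex were among the stronger ones of the group. XPC, whose product recognizes the distorted helix, lies at chr3:14145147-14178621 on the minus strand (ENSG00000154767.15), and its start is 216 bp from that of LSM3 on the other strand, so both genes share the region. Its promoter stood at percentiles 94.2 and 97.9 (WT) and 97.3 and 95.8 (ASH1L-/-) without UV, and 98.0 and 91.6 (WT) and 95.3 and 96.7 (ASH1L-/-) 3 h post UV, 1 value per library. UV and unchallenged libraries overlapped, with the lowest value in replicate 2 of the WT cells after UV. The UV difference was -0.87 percentile points (SE 1.41, adjusted p = 0.694, limma over 11802 promoters).

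RAD23B, the partner that keeps XPC stable, lies at chr9:107283137-107332192 on the plus strand (ENSG00000119318.13). Its promoter stood at 95.2 and 94.0 (WT) and 96.3 and 95.5 (ASH1L-/-) without UV, and 90.3 and 84.0 (WT) and 91.9 and 91.7 (ASH1L-/-) with UV. The 4 UV libraries were the 4 lowest. The UV difference of -5.81 points (SE 1.79) had an adjusted p of 0.0944 in limma. A second region inside the first kb of the gene, at chr9:107283801-107284286, was called in 7 lists and was missing from replicate 2 of the unchallenged ASH1L-/- cells, the shallowest library.

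CETN2, a small calcium-binding centrin, lies at chrX:152826994-152830757 on the minus strand (ENSG00000147400.10) and shares its promoter region with NSDHL, whose start is 306 bp away. Percentiles were 97.3 and 99.0 (WT) and 99.1 and 99.2 (ASH1L-/-) without UV, and 98.7 and 96.4 (WT) and 98.1 and 96.8 (ASH1L-/-) with UV. The groups overlapped, and the UV difference was -1.17 points (SE 0.68, adjusted p = 0.261, limma).

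The promoters of the UV-DDB genes stood lower, DDB2 near the median of all promoters and DDB1 below it. DDB1, the adaptor that joins UV-DDB to the ligase, lies at chr11:61299451-61342596 on the minus strand (ENSG00000167986.15), and its promoter region also covers the start of TKFC, 123 bp away on the other strand. It stood at 82.1 and 83.6 (WT) and 91.1 and 85.8 (ASH1L-/-) without UV, and 81.9 and 70.5 (WT) and 81.2 and 84.0 (ASH1L-/-) with UV. The UV and unchallenged values overlapped, and the difference of -6.27 points (SE 3.36) had an adjusted p of 0.228 in limma. Without replicate 2 of the WT cells after UV it was -3.92 points.

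DDB2, the lesion-binding subunit, lies at chr11:47214465-47239217 on the plus strand (ENSG00000134574.12), and the summit of its promoter region lay 698 bp before the start used here. Percentiles were 90.6 and 91.9 (WT) and 95.3 and 94.7 (ASH1L-/-) without UV, and 87.3 and 76.8 (WT) and 84.5 and 89.7 (ASH1L-/-) with UV. The 4 UV values lay below the 4 unchallenged ones. The difference was -8.53 points (SE 2.74, adjusted p = 0.0972, limma).

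Among the ligase genes, the cullins CUL4A and CUL4B had the largest estimated differences of the 8 members in percentile points. CUL4A lost that place on normal scores of the ranks and in percentiles among promoter regions alone, both described below. CUL4A, a cullin scaffold, lies at chr13:113208193-113267108 on the plus strand (ENSG00000139842.15). The summit of its strongest promoter region lay 779 bp before its start, toward PCID2, whose start is 944 bp away and which shares the region. It stood at 84.5 and 84.3 (WT) and 84.1 and 83.0 (ASH1L-/-) without UV, and 71.6 and 67.9 (WT) and 70.4 and 76.6 (ASH1L-/-) with UV. Within 1 kb of the CUL4A start 2 weaker sites were called, chr13:113209832-113210381 in 4 lists (percentiles 5.01 to 57.8) and chr13:113209259-113209536 in 2 lists (8.01 and 11.2). At the strongest region, the unchallenged libraries lay within 83.0 to 84.5 and all UV libraries were lower, by -12.4 points on average (SE 3.30, adjusted p = 0.0841, limma).

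CUL4B, the X-linked paralogue of CUL4A, lies at chrX:120505920-120604074 on the minus strand (ENSG00000158290.19). Its promoter stood at 91.6 and 93.6 (WT) and 92.1 and 97.6 (ASH1L-/-) without UV, and 85.2 and 71.6 (WT) and 83.5 and 84.1 (ASH1L-/-) with UV. The groups did not overlap, and the lowest value was that of replicate 2 of the WT cells after UV. The difference was -12.6 points (SE 3.26, adjusted p = 0.0805, limma).

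RBX1, which carries the RING finger of the ligase, lies at chr22:40951347-40973309 on the plus strand (ENSG00000100387.9). Its promoter stood at 98.8 and 98.1 (WT) and 98.1 and 98.1 (ASH1L-/-) without UV, and 94.5 and 93.8 (WT) and 93.3 and 93.3 (ASH1L-/-) with UV. The groups were apart with little spread inside them (98.3 ± 0.336 unchallenged against 93.7 ± 0.547 after UV, SD, n = 4 libraries each). The difference of -4.54 points (SE 0.70) had an adjusted p of 0.0708 in limma.

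No member passed the threshold of 0.05 for UV, and neither did any other of the 11802 promoters (0.0%), although limma gave an unadjusted p under 0.05 for 3591 of them (30.4%) and for 5 of the 8 members. In an exact permutation test of 4 against 4 libraries, two-sided and unadjusted, any groups that do not overlap give p = 0.0286, the smallest attainable. For the 5 members whose groups did not overlap, this p therefore only restates that separation, which 21.1% of all promoters showed in the same direction. The median UV difference was -6.04 points over the 8 members and -2.85 points over all promoters, and 79.7% of all promoters had a negative difference. Sites in all 8 lists within 1 Mb of a member, outside its own window, had median UV differences from -3.63 points around RAD23B to -0.44 around CETN2. Among those with a mean percentile of at least 80, the medians ran from -2.09 around CUL4B to 0.36 around RAD23B. With replicate 1 of the WT cells after UV left out, RAD23B, DDB2, CUL4B and RBX1 passed, together with 14.5% of all promoters, and without replicate 2 of that group CUL4B and RBX1 passed, with 4.42% of all promoters. On normal scores of the ranks, which weigh the top of a list more, the 5 non-overlapping members were called lower, with 16.2% of all promoters called lower and 0.856% higher.

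When the same regions were tested among the 60323 sites called in all 8 lists, the promoters of RBX1 (adjusted p = 0.0212, limma) and CUL4B (adjusted p = 0.0439) were called lower after UV. Ranked by p-value RBX1 was not called, and with the replicate number as a block CUL4B was not. Of these sites 3.6% were called lower and 2.37% higher. Without replicate 1 of the ASH1L-/- cells after UV, 0 sites were called, members and others alike, and without any 1 of the other libraries except replicate 1 of the WT cells after UV, CUL4B lost its call while RBX1 kept it.

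The direction depended on the scale. The summit pileup, in reads, was recovered from the fold enrichment and the p-value of each region and divided by the mean pileup of the library. On this scale the UV difference was positive at 7 of the 8 members and for most promoters, with a median of 0.45 on the log2 scale over all 11802 promoters and 0.36 over the members. XPC had the highest member value, 0.73 (SE 0.33, adjusted p = 0.168, limma), and CUL4B the lowest and only negative one, -0.33 (SE 0.34, adjusted p = 0.472). No member was called, against 3.79% of promoters called higher and 0.0508% called lower. In percentiles taken among the promoter regions of a list alone, the UV difference was positive at XPC, CETN2 and DDB1 (5.15, 0.43 and 1.58 points) and negative at the other 5, from -12.95 points at CUL4B to -3.92 at RAD23B, while the median of all promoters was 1.84. Among the members, CUL4B alone thus had a negative estimate on all 3 scales. Its estimate was below the median of all promoters on each, and so were those of RAD23B, DDB2, CUL4A and RBX1. XPC, CETN2 and DDB1 were above that median on the scaled pileup. These values hold for the start site used here. With the strongest region at any annotated start of a gene, the CUL4B estimate was -4.49 percentile points (adjusted p = 0.0981, limma).

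**Figure D2:**
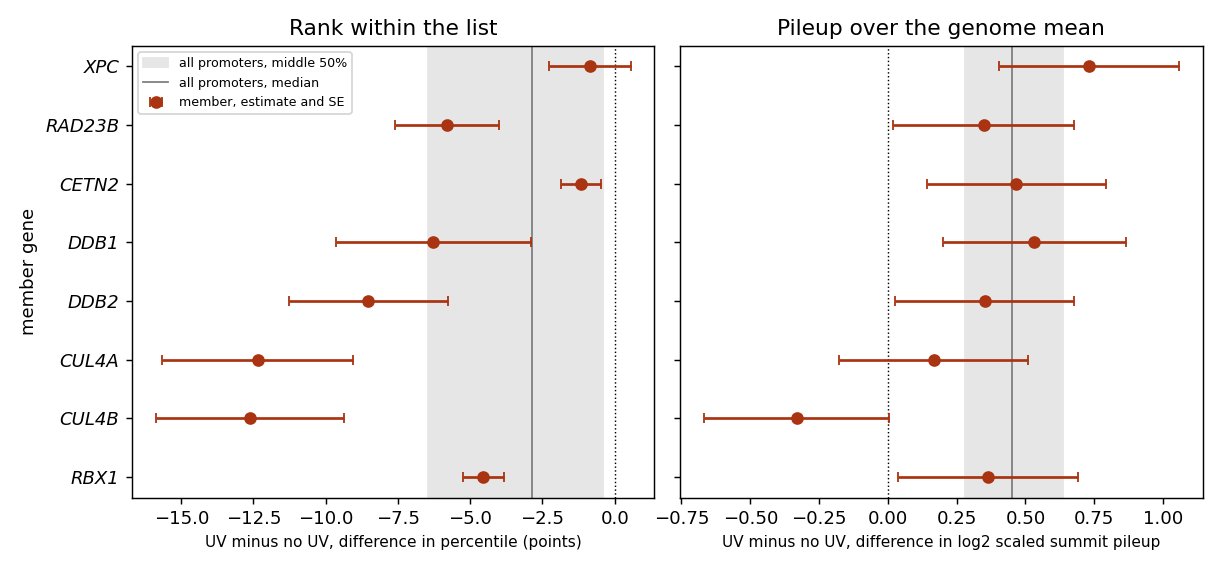
UV difference at the promoters of the 8 members, in percentile points (left) and in log2 of the summit pileup over the genome mean (right). Points are limma estimates with 1 SE, the grey band is the middle 50% of all 11802 promoters, the grey line their median and the dotted line 0. All 8 members are negative on the left, and all but CUL4B are positive on the right. Most promoters are also negative on the left and positive on the right. CUL4A and CUL4B lie left of the band on both.

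The pileup behind these values was modest at the weaker promoters. It was 22 to 78 reads at CUL4A, 37 to 93 at CUL4B and 35 to 102 at DDB1, and 103 to 291 at RBX1 and 112 to 271 at DDB2. The promoter region of CUL4B held 41 and 38 reads in unchallenged WT cells and 37 and 44 in WT cells after UV, and 93 and 82 in unchallenged ASH1L-/- cells and 70 and 65 after UV. The mean width of the region at XPC was 708 bp unchallenged and 966 bp after UV, and at DDB1 550 and 699 bp, whereas at CUL4A it was 528 and 555 bp and at RAD23B 643 and 640 bp. Region width and UV thus moved together at some members as in the lists as a whole, and the part of width in the ranks was not tested.

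The UV difference had the same sign in both genotypes at all 8 promoters. It ranged from -14.7 points at CUL4A to -0.63 at CETN2 in WT cells, and from -11.1 at CUL4B to -0.52 at XPC in ASH1L-/- cells. No member was called in the limma test of the UV by genotype contrast, whose smallest unadjusted p among the members was 0.382 at RAD23B, and 0.0% of all promoters passed, with 300 promoters and 0 members at an unadjusted p under 0.05. This does not show that the genotypes responded alike.

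The genotype comparison, ASH1L-/- minus WT, gave no call at any member promoter nor at any other (0.0%). Differences lay between -0.57 points at RBX1 and 5.97 points (SE 3.36, adjusted p = 0.789, limma) at DDB1, with a median of 2.19 over the members and 1.09 over all promoters, and an unadjusted p under 0.05 was reached by 681 promoters and 0 members. Without replicate 2 of the WT cells after UV, the estimate was 3.62 points at DDB1, 2.18 at DDB2, 1.34 at RAD23B and 0.81 at CUL4B. The 4 ASH1L-/- and the 4 WT libraries overlapped at all 8 members, and 1.78% and 0.729% of all promoters were apart, higher and lower in ASH1L-/- cells. On the scale of the scaled pileup, which turned the sign of most differences, the lowest member was CUL4A at -0.76 (log2; adjusted p = 0.245, limma). The 82 sites called in all 8 lists within 1 Mb of that gene had a median of -0.80, against -0.31 for all such sites in the genome. Around the other 7 members the same median lay between -0.36 and -0.18.

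The promoters differed from the rest of the sites at these genes in how often they were called. Of 11 promoter sites 8 were called in all 8 lists, at least 1 for every gene, and 0 in a single list. Internal sites lay inside the gene but not within 1 kb of the start used here. Of 67 such sites, 5 were called in all lists and 45 in a single one, and of 16 sites in the flanks 2 and 7. Over all 94 sites, 55.3% appeared in 1 list and 16.0% in all, compared with 60.5% and 11.0% of all sites of the genome. Shares by class over all genes are not given here, so the contrast between classes is not particular to these genes on these values. The regions had a median pileup of 86 reads at promoter sites, 14 at internal and 19 at flanking sites, and sites called once had a median percentile of 21.5. CUL4A alone had 27 internal sites, 19 of them in 1 list, and DDB1 had 15, with 10 in 1 list. CETN2, the shortest gene with 3764 bp, had no internal site.

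**Figure D3:**
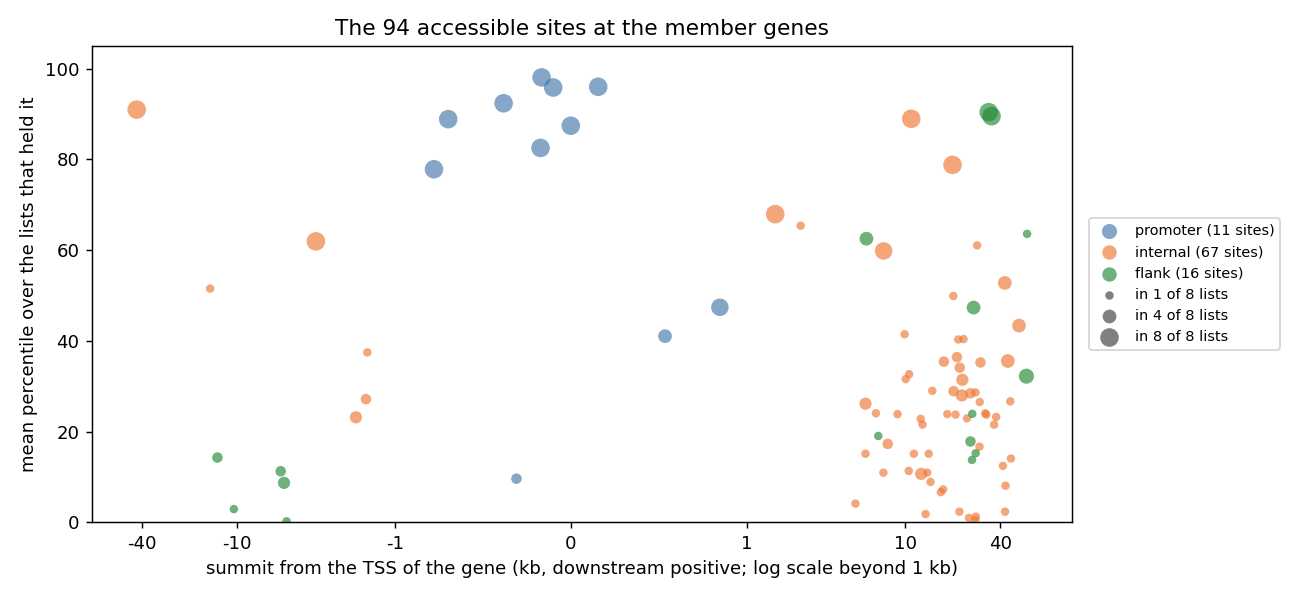
The 94 sites at the member genes by the distance of their summit from the TSS (horizontal axis, kb, logarithmic beyond 1 kb) and their mean percentile over the lists that held them (vertical axis). Colour gives the class and point size the number of lists. Sites called in all 8 lists, the large points, sit at or above a mean percentile of 61.9, and the small points, called in 1 list, at or below 65.4.

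Of the 15 member sites called in every list, 7 lay outside the promoters as defined here. Among these 7, only the DDB1 flank and the internal DDB1 site had no annotated start of any gene within 1 kb. The strongest of the 7 lay at the upstream end of CUL4B, chrX:120603701-120604693, where a longer CUL4B transcript and MCTS1 begin, and had a mean percentile of 91.0. It stood at 90.3, 83.9, 85.6 and 88.2 in the WT libraries (unchallenged, then after UV) and at 96.8, 95.0, 94.4 and 93.5 in the ASH1L-/- libraries in the same order. The genotypes did not overlap, which held for 2.57% of the sites called in all 8 lists in this direction and 1.51% in the other, and the difference of 7.91 points (SE 1.88) had an adjusted p of 0.322 in limma. No site in the genome was called for genotype in this limma fit, higher (0.0%) or lower (0.0%), and 5759 sites, 1 of them this member site, had an unadjusted p under 0.05. The UV difference at this upstream CUL4B site was -1.10 points (SE 1.88, adjusted p = 0.744, limma).

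Inside CUL4B, an intronic site at chrX:120548860-120550448 had a mean percentile of 88.9, and its values lay between 84.7 and 95.6 with no split by UV. It lay within 1 kb of another annotated CUL4B start. At the 3' side of XPC, 174 bp beyond the gene in the antisense gene XPC-AS1, the site chr3:14143721-14144973 stood between 84.9 and 93.9. This XPC site lay within 1 kb of an annotated XPC-AS1 start. The flank of DDB1 at chr11:61297319-61298296, 1155 bp beyond the gene, stood between 71.4, in replicate 1 of the unchallenged WT cells, and 94.8. Its UV difference was 6.15 points (SE 3.80, adjusted p = 0.322, limma), and 1.24 on the log2 scale of the scaled pileup (adjusted p = 0.00480, limma), where 18.7% of all sites in the 8 lists were called higher after UV and 1.2% lower. The call was lost without replicate 1 of the unchallenged WT cells (0.80, adjusted p = 0.175, limma) and without replicate 1 of the ASH1L-/- cells after UV (1.16, adjusted p = 0.0695).

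DDB1 also had an internal site at chr11:61336132-61336648, 3167 bp before its start and inside TKFC, with a larger estimated UV difference in rank than any promoter of the group. Its percentiles were 70.7 and 80.8 (WT) and 80.3 and 72.0 (ASH1L-/-) without UV, and 22.5 and 58.4 (WT) and 53.3 and 57.3 (ASH1L-/-) with UV. The 4 UV values were the lowest, with replicate 1 of the WT cells after UV far below the rest. The difference was -28.1 points (SE 8.63, adjusted p = 0.0752, limma). On the scaled pileup it was -0.04 on the log2 scale (SE 0.38). Of the 15 member sites called in all 8 lists, 6 were lower in all UV libraries, 5 promoters and this one, against 12.3% of all such sites, and 0 were higher, against 5.99%.

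DDB2 had 2 further sites in all lists. That at chr11:47233961-47235388, in the 3' part of the gene near the start of a shorter DDB2 transcript, stood at 82.0 and 84.0 (WT) and 80.2 and 57.2 (ASH1L-/-) without UV, and 87.6 and 72.0 (WT) and 84.4 and 82.9 (ASH1L-/-) with UV. The ranks overlapped (5.88 points, SE 6.30, adjusted p = 0.579, limma). Its summit pileup was 46 and 58 reads in unchallenged and 182 and 224 in UV-treated WT cells, and 54 and 15 in unchallenged and 89 and 91 in UV-treated ASH1L-/- cells. Relative to the mean pileup of each library these were 21.9 and 33.3 and then 71.9 and 83.8 in WT, and 9.20 and 10.8 and then 36.4 and 32.3 in ASH1L-/- cells. The UV values were the higher ones within each genotype, and the ASH1L-/- values the lower ones within each treatment, although the pooled groups overlapped.

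On the log2 scale of the scaled pileup, this DDB2 site was called higher after UV, by 1.65 (SE 0.36, adjusted p = 0.000101, limma), where the median of all sites was 0.48. The call held with any 1 library left out, with differences from 1.56 to 1.80. It was also called lower in ASH1L-/- cells, by -1.31 (SE 0.36, adjusted p = 0.0238, limma), where the median of all sites was -0.31, that of the 72 neighbouring sites -0.33, and 1.59% of all sites were called lower and 0.209% higher. This second call was lost without replicate 2 of the unchallenged WT cells, replicate 2 of the WT cells after UV or either replicate of the ASH1L-/- cells after UV (adjusted p = 0.141 to 0.209, limma). The promoter of DDB2 differed by 0.35 with UV and -0.20 with genotype on the same scale.

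The other internal DDB2 site, chr11:47216137-47216808, lay in the first part of the gene and within 1 kb of another annotated DDB2 start. It stood between percentiles 46.2 and 89.0. Its scaled pileup differed by 0.90 with UV (adjusted p = 0.0488, limma), where the median of all sites was 0.48 and 18.7% were called higher. Its value was 0.59 on leaving out unchallenged ASH1L-/- replicate 1 and was 1.21 on leaving out replicate 1 of the UV-treated WT cells. The call was lost without any 1 of 5 libraries (replicate 2 of the unchallenged WT cells, replicate 2 of the WT cells after UV, replicate 1 of the unchallenged ASH1L-/- cells and both ASH1L-/- libraries after UV).

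The presence of a region separated the UV libraries from the unchallenged ones at 2 of the 94 sites, 1 at CETN2 and 1 at DDB2, and both were present after UV. The CETN2 site, chrX:152824890-152825382, 1612 bp beyond the 3' end of the gene, had percentiles of 77.6 and 74.3 in WT cells and 33.5 and 64.6 in ASH1L-/- cells after UV, with a pileup of 24, 35, 10 and 17 reads, and no region in the 4 unchallenged lists. The DDB2 site, chr11:47241721-47242374, 2504 bp beyond the 3' end of the gene in an intron of ACP2, had percentiles of 56.5 and 37.8 in WT cells and 49.1 and 45.9 in ASH1L-/- cells after UV, with 23, 19, 19 and 19 reads. Such sites made up 0.686% of all sites, and sites present in the 4 unchallenged lists alone 0.0967%, of which the members had 0. Of the 6 member sites called in exactly 4 lists, these 2 were in the UV lists, against 19.0% of all sites called in exactly 4 lists. A list leaves out regions under the p-value threshold of 0.01, so a missing region says that no region was called and not that the DNA was closed.

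For genotype, 1 of the 94 sites separated the libraries. It lies at chrX:120517916-120518447 in an exon of CUL4B and was present in the 4 ASH1L-/- lists alone, at percentiles 73.5 and 23.7 unchallenged and 51.5 and 62.3 after UV, with 23, 6, 13 and 16 reads. Sites of this kind were 0.186% of all sites, and 5.16% of those called in exactly 4 lists, and sites called in the 4 WT lists alone were 0.0768%, of which the members had 0. With regions of a q-value below 0.05 this site no longer separated the genotypes, whereas both UV sites still separated UV from no UV.

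**Figure D4:**
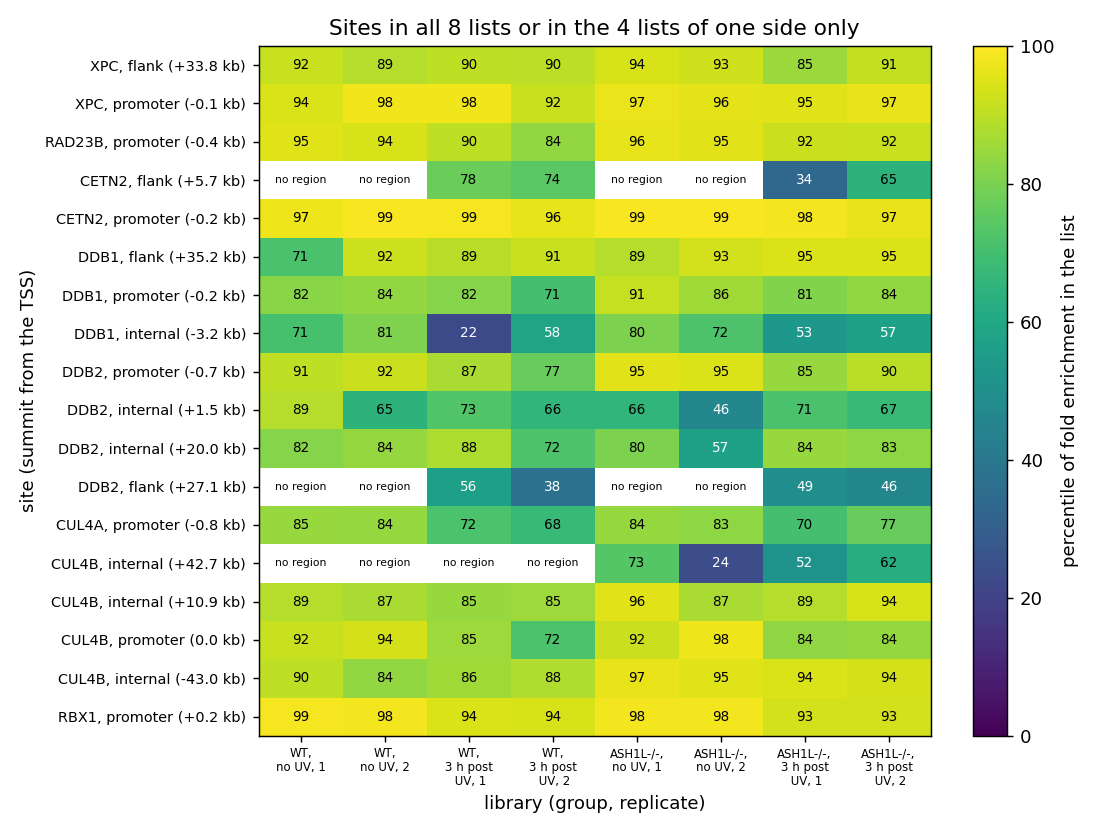
Percentile of fold enrichment within its list (colour and printed number) at the 15 member sites called in all 8 lists and the 3 called in the 4 lists of one side only (rows, with the distance of the summit from the TSS) in the 8 libraries (columns). White cells are libraries without a region. The CETN2 and DDB2 flanks are filled in the UV libraries alone and the internal CUL4B site furthest downstream in the ASH1L-/- libraries alone.

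The number of regions per gene, including 5 kb on both sides, did not separate the groups at any member. Across the libraries it was 5 to 11 at CUL4A, 4 to 8 at DDB1, 3 to 7 at XPC, 3 to 6 at DDB2, 3 to 5 at CUL4B, 1 to 4 at RBX1, 1 to 2 at CETN2 and 2 in each library at RAD23B. DDB2 had 6, 4, 3 and 3 regions unchallenged and 6, 6, 5 and 6 after UV (a mean of 4 against 5.75, with a two-sided exact permutation p of 0.143). CUL4A had 10 and 11 in WT cells and 5 and 5 in ASH1L-/- cells after UV, and 9 and 8 against 11 and 10 unchallenged. Its two-sided exact permutation p was 0.4 for UV and 0.4 for genotype. The share of genes with such counts in groups of 2 libraries is not given here, and 21 of the 34 CUL4A sites were called in 1 list. Counts in the UV libraries were all higher at 1.36% and all lower at 1.11% of the 19259 protein-coding genes with a region, and the same shares for the ASH1L-/- libraries were 1.51% and 1.49%. After Benjamini-Hochberg adjustment over these genes, p was 1 for all 8 members in both comparisons.

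Genes that work with the members were examined in the same way. A list of 29 genes, with the centrin gene CETN3, adaptors and regulators of cullin ligases, and modifiers of XPC or DDB2, had 26 with a promoter region in all 8 lists. For UV and for genotype 0 of the 26 were called in limma, with 12 and 1 at an unadjusted p under 0.05. After UV 5 of them (DTL, UBE2M, NAE1, COPS5 and UFD1) were lower in all 4 libraries and 1, COPS7B, was higher. The 5 are 19.2% of the 26, beside 21.1% of all promoters lower and 1.06% higher, and the share of all promoters at an unadjusted p under 0.05 was 30.4%. The median difference was -2.51 points, beside -2.85 for all promoters. DTL, which encodes the CRL4 substrate receptor CDT2, had the lowest value of the list (-15.0 points, adjusted p = 0.0946, limma) and COPS7B, a subunit of the COP9 signalosome that removes NEDD8 from cullins, the highest (32.2 points, adjusted p = 0.0926).

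Over the 8 libraries, the gene whose promoter percentile followed a member most closely was the neighbour that shares its region for XPC (LSM3), CETN2 (NSDHL), DDB1 (TKFC) and CUL4A (PCID2), with a Pearson r of 1 by construction. It was METTL17 for RAD23B (r = 0.997), SLC20A1 for DDB2 (r = 0.994), ENSG00000286112 for CUL4B (r = 0.995) and FN3KRP for RBX1 (r = 0.989). The number of promoters with r above 0.9 was 2043 for RAD23B, 1418 for DDB2, 1234 for CUL4B, 773 for DDB1, 658 for CUL4A, 234 for RBX1, 60 for XPC and 46 for CETN2. The 8 points of each correlation share their libraries and the UV split, and the values are descriptions.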

How the data were processed

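ATAC-seq was analysed in 8 libraries of U2OS cells, 2 biological replicates in each of 4 groups, with groups and replicate numbers from the sample titles. Per the labels and the methods, the authors trimmed reads with cutadapt 1.9.1, aligned them to hg38 with Bowtie2 2.4.5, filtered them (SAMtools 1.7, bedtools 2.29.2, Picard) and called peaks in each library separately with MACS2 2.2.7.1. The deposited lists give for each summit a fold enrichment, a ratio of pileup to local background, with −log10 p-values and −log10 q-values, which the authors did not normalise between libraries. They hold no read counts.

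Regions were distinct intervals, with the record of highest fold enrichment. Percentiles were 100 × (rank − 0.5)/n within a list, with ties at their mean rank. Pileups were solved from fold enrichment and p-value, and 100% were whole numbers within 0.05. The promoter and site values were tested with limma 3.58.1 (trend, R 4.3.3) with UV and genotype as additive terms, all 4 groups sharing an estimate of the spread, and Benjamini-Hochberg adjustment over all promoters or sites at 0.05. An interaction term tested the UV by genotype contrast. Regions per gene were compared by an exact permutation test. The p-values rest on 2 libraries per group. The limma fit was tested on simulated data with known shifts. Percentages of called features are given without a counting interval. The members and lists were chosen with earlier results of these data known. Named were all 8 members, their promoter sites, the strongest internal and flanking site of a gene among those in all 8 lists, sites that were called or separated the libraries, and the most similar gene. The CUL4B intron site and the weaker internal DDB2 site were added after their values were seen. Alternatives were another scale, ranking by p-value, scaled pileup, percentiles among promoters, other TSS definitions, no filter, a q-value threshold, a replicate block and leaving out each library. Leaving out libraries on the scaled pileup was chosen after seeing the data. Some genes of the marker and pathway lists are not reported here by name.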

Additional observations from a re-analysis of the deposited data

Results flagged for a closer look

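In 30 groups of 4 libraries, the 4 unchallenged or the 4 UV libraries at the 15 member sites called in all 8 lists, 6 had a library set apart from the other 3, judged by the gap to its nearest neighbour over the range of the group (above Dixon's critical value). Chance gives about 1 in 20 for independent groups of values from a single normal distribution. The groups here mix both genotypes and share libraries across sites, so the 6 cannot be read against that rate. Among the unchallenged libraries, replicate 1 of the WT cells was low at the CETN2 promoter (percentile 97.3) and high at the RBX1 promoter (98.8), and replicate 2 of the ASH1L-/- cells, the shallowest library, was low at the 3' DDB2 site (57.2). Among the UV libraries, replicate 2 of the WT cells was low at the CUL4B promoter (71.6), replicate 1 of the WT cells at the internal DDB1 site (22.5), and replicate 1 of the ASH1L-/- cells at the XPC flank (84.9).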

How the results depend on the processing

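Over all alternatives, 97 counts of calls stayed within 1.5 times, 11 grew and 15 shrank, and of the differences at single promoters and sites 258 kept their direction and side of the threshold, 24 turned sign, 11 passed and 11 lost it. For these changes the cause was not tested. The number of members called for UV at promoters, 0, became 5 on normal scores, with 17.0% of all promoters. The exact permutation count of groups that do not overlap was 5, without adjustment, beside 21.1% of all promoters lower and 1.06% higher. On the scaled pileup the UV difference turned positive (log2) at XPC (0.73), RAD23B (0.35), CETN2 (0.47), DDB1 (0.53), DDB2 (0.35), CUL4A (0.17) and RBX1 (0.36), and the genotype difference turned negative at XPC (-0.38), RAD23B (-0.32), CETN2 (-0.16), DDB2 (-0.20) and CUL4A (-0.76). Among promoter regions alone, the UV difference was positive at XPC (5.15 points), CETN2 (0.43) and DDB1 (1.58), and the genotype difference negative at XPC (-0.36) and CUL4A (-1.17). Ranked by p-value, the UV difference of XPC was 0.48, and the genotype differences of CUL4A and RBX1 were -2.74 and 0.021. Leaving out a library moved the XPC UV difference from -2.09 to 0.50, and the genotype differences of XPC from -0.50 to 2.09, of CETN2 from -0.041 to 0.99 and of CUL4A from -0.27 to 2.19 points. The 2 member sites called for UV among sites in all 8 lists (5.96% of all sites) became 4 on normal scores (12.1% of all sites). Ranking by p-value gave 1 (CUL4B, 8.504% of all sites). Regions with a q-value below 0.05 gave 1, where the share of all sites is not given here. The scaled pileup called 3 other sites, all higher (the DDB1 flank and both internal DDB2 sites), with 19.9% of all sites. For genotype it called 1, the 3' DDB2 site, with 1.80% of all sites. The count of 2 sites separating UV from no UV became 1 where a region had to cover at least 50% of the site (the CETN2 flank) and 0 in the top quartile, and the 1 site separating ASH1L-/- from WT became 0 with a q-value below 0.05, with 50% coverage and in the top quartile. The shares of all sites under these settings are not given here. Members whose region counts separated UV from no UV, 0, became 1 with a q-value below 0.05 (CETN2, with 2.87% of all genes). By bases covered they became 2 (CETN2 and DDB2, with 11.3% of all genes). For genotype the count, 0, became 1 over the span alone (CUL4B, with 2.81% of all genes).

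With the replicate number as a block (replicate block), 1 member site was called for UV in place of 2, the RBX1 promoter, and 0 promoters as before. Deviations of same-numbered libraries from their group means correlated weakly, between -0.08 and 0.14. Whether same-numbered libraries were prepared together was not tested. The median summit pileup was 14 reads at internal, 19 at flanking and 86 at promoter sites, and the effect of depth on the calls was not tested.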
